A study of Mus musculus with 4 samples.

Results

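The SoxD transcription factors Sox5, Sox6 and Sox13 were examined for regions of differential DNA methylation between Nsd1 conditional knockout and control cortex. A region was taken when it shared at least 1 bp with the RefSeq body of 1 of these genes widened by 5 kb on both sides, in any sequence context. Of 101350 regions that the authors' deposited table lists, 163 were chosen by this rule: 62 in Sox5, 90 in Sox6 and 11 in Sox13. Regions enter the table by their difference between the group means, and the genes were selected on their numbers of such regions, so counts and levels below are descriptions with no test. The assay was bisulfite sequencing of the whole genome, in which unmethylated cytosines are converted and methylated ones are still read as cytosine. The tissue was somatosensory cortex at an age of 2.5 months. The knockout group (cKO, 2 libraries) has the genotype Nsd1Nex-cKO and the control group (2 libraries) the genotype Nsd1fl/+, so control mice carry 1 floxed allele. Nex (Neurod6) is active in the excitatory neurons of the cortex, while the dissected tissue also holds inhibitory neurons, glia and vessels. A lower level in the same cells and another mix of cells therefore cannot be told apart. The labels do not say whether the libraries came from separate animals or whether controls carry the Cre driver. The table gives 1 mean per group and region, so no spread between libraries stands beside any value, and the depth is unknown.

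SoxD proteins bind DNA through an HMG box, which bends the helix, and pair with each other through a coiled coil. They carry no activation domain of their own and act through partners. Sox5 sets the timing of deep layer projection neurons in the developing cortex, Sox6 acts in interneurons born in the medial ganglionic eminence and in oligodendrocyte precursors, and Sox5 and Sox6 together with Sox9 drive cartilage genes. Sox13, the more distant member, is known from gamma delta T cells. NSD1 is a methyltransferase for lysine 36 of histone H3, a mark that the DNA methyltransferase DNMT3A can bind. Mature neurons carry methylation at CG sites and, at lower levels, at CHH and CHG sites (H is any base but G).

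Of the 8 RefSeq start windows of the 3 genes, 1 shared a base with a listed region, a CG region lower in cKO. Of all windows of protein-coding genes, 1.18% share a base with such a region. The windows span 250 bases before to 50 after a start. RefSeq sequences on GRCm38.p6, the assembly of mm10, list 6 such starts for Sox6 and 1 each for Sox5 and Sox13, and the 3 genes all lie on the minus strand. The first sequence below is the window of the Sox6 start at 115824710 (chr7:115824661-115824960, minus strand), with the listed region in capitals. The second is the window of the Sox6 start at 116031047 (chr7:116030998-116031297, minus strand), which has listed regions just downstream. The last is the Sox13 window (chr1:133424163-133424462, minus strand), the richest in CpG, with no listed region nearer than 1422 bp. In the second and the last, CpG sites are in capitals.
Sox6, start at 115824710: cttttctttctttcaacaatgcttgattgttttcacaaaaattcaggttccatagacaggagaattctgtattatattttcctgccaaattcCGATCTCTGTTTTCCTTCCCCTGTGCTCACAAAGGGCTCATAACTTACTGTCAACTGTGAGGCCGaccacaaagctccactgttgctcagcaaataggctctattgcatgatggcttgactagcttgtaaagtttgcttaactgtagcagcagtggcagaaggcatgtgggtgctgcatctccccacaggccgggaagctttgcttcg
Sox6, start at 116031047: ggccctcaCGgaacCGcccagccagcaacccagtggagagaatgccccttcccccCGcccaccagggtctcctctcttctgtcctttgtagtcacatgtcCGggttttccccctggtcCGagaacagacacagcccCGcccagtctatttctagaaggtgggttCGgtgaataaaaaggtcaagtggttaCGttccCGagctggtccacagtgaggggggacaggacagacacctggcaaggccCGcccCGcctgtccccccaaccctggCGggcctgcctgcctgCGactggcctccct
Sox13: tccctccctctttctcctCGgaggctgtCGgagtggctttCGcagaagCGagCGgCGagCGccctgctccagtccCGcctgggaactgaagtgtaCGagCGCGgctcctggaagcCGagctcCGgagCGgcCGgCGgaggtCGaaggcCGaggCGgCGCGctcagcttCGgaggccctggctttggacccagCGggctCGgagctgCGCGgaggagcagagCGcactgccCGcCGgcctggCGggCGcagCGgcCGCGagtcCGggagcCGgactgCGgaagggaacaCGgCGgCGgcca
The capitals of the first window hold 2 CpG sites, which the authors' table counts as 4 cytosines because it counts each strand. The window as a whole holds 4 CpG sites, against 13 in the second and 40 in the Sox13 window. The SOX core motif, read as ACAAT or ATTGT to cover both strands, occurs 2 times in the first window, outside the capitals, and 0 times in the other 2. Of all 32851 RefSeq start windows, 31.0% hold it.

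Around the 6 listed Sox6 starts, 3 had regions within 1 kb. These were all lower in cKO, as were all 90 regions of Sox6, between which the median gap was 2.29 kb. The share of all RefSeq starts with a listed region within 1 kb is not given here, so this count has no background. At the start at 115824710, the region shown in capitals (115824804 to 115824868) had a CG level of 52.7% in control and 14.4% in cKO. Its upstream position, 94 to 158 bp from the start, places it inside a window type in which 1.18% of windows of protein-coding genes share a base with a CG region lower in cKO, and 1.39% with a region lower in any context. Its small number of CpG sites limits its precision. At the start at 116031047, 2 CG regions lay downstream. The nearer, from 81 to 175 bp, had 66.5% in control and 42.2% in cKO, and the farther, from 244 bp, had 75.3% and 45.4%. A CHH region of 166 cytosines followed (116030177 to 116030662), at 10.5% in control and 2.53% in cKO. Around the start at 115995086, a CG region upstream (115995889 to 115996363) had 77.7% in control and 36.8% in cKO. A CHH region within it had 5.94% in control and 0.992% in cKO (115995909 to 115996287). A nearer CHH region, 475 bp upstream, had 5.87% and 1.33%, and a CG region 647 bp downstream had 90.4% and 71.0%. Near the start at 115824710, a CHH region 982 bp downstream had 6.65% in control and 1.46% in cKO. The remaining 3 Sox6 starts, the Sox13 start and the Sox5 start, which is 48.8 kb from its nearest region, had none within 1 kb. This Sox5 start lies 835 kb into the gene entry, so no window covers the beginning of the Sox5 entry.

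In Sox6 (gene ID 20679, chromosome 7, 115470872 to 116040776, 570 kb), all 90 listed regions were lower in cKO. They comprised 26 CG, 3 CHG and 61 CHH regions. The share of all protein-coding genes with at least 1 region of a kind is 26.5% for CG losses, 22.4% for CHH losses, 8.2% for CG gains and 16.3% for CHH gains. Long genes carry more, so Sox6 was also set beside the 560 other protein-coding genes of 0.5 to 2 times its length. Of these, 70.4% had a CG loss and 55.5% a CHH loss, with medians of 2 and 1 regions, while 8 had as many CHH losses as Sox6 and 31 as many CG losses. A CHH gain was carried by 72.7% of them, a CG gain by 32%, a CHG loss by 6.25% and a CHG gain by 3.21%. Regions of both directions were present in 58% of them. Losses with no gain in any context, as in Sox6, were found in 19.5%. Of the 8 genes with as many CHH losses as Sox6, 6 also had no gain, so this trait is common among them. By number of CHH losses Sox6 had rank 9 among 21792 protein-coding genes.

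**Figure D1:**
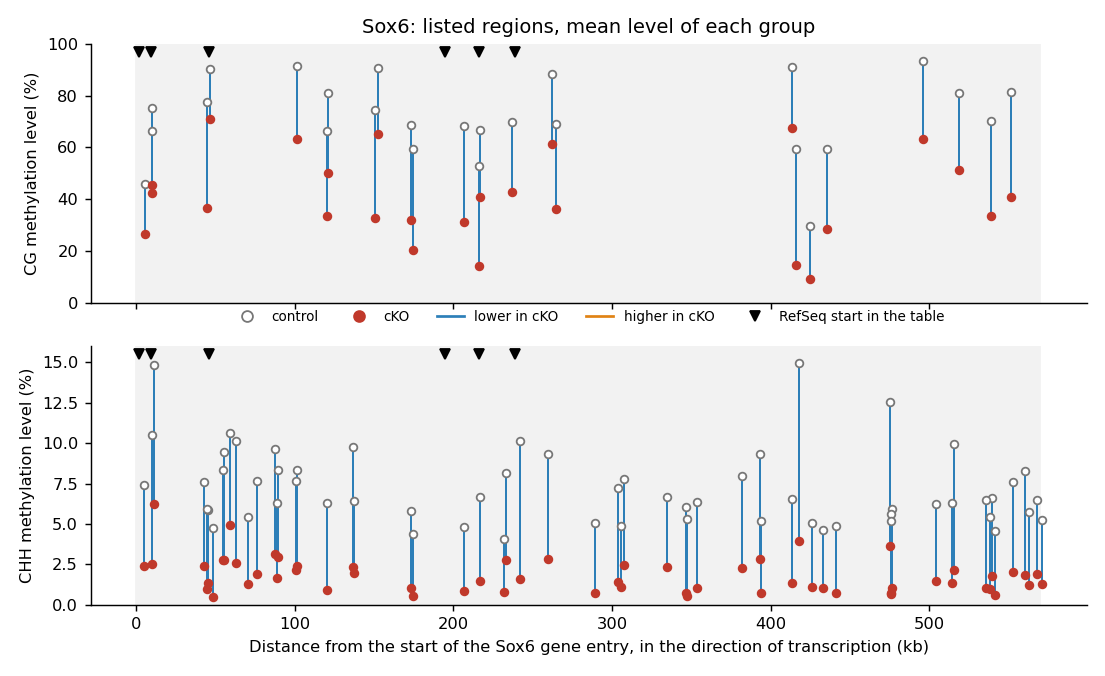
Mean CG level (upper panel) and CHH level (lower panel), in percent, of each listed region of Sox6, plotted by distance from the start of the gene entry in kb. Open points are control, filled points cKO, lines join the 2 group means of a region, the grey band is the gene body and triangles mark RefSeq starts. All 26 CG and 61 CHH regions were lower in cKO, and the 3 CHG regions are not drawn.

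The CHH losses ran along the whole of Sox6, whereas CG losses left a long stretch free. Cut into 10 equal parts of 57.0 kb, the gene body held between 3 and 10 CHH regions in each, with 10 in the last and 9 in each of the first 2. The widest stretch with no CHH region was 35.9 kb. CG regions were absent over 149 kb (115627386 to 115776251), and 18 of the 26 lay in the first 5 parts. With 26 CG against 61 CHH regions, wider gaps in CG follow in part from number. Such gaps were not particular to Sox6, as the widest in Sox5 were 148 kb for CG and 181 kb for CHH. The plot of levels along Sox6 shows an empty span for CG where CHH regions continue. Of the 61 CHH losses, 16 lay within 1 kb of a CG loss (26.2%), against 23% in other protein-coding genes. Overlap with a CG loss was found for 7 (11.5%), against 6.08%.

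In the CG context, control levels in Sox6 ranged from 29.5% to 93.4% (median 70.0%) and cKO levels from 9.33% to 71.0% (median 38.8%). The median difference of -30.5 points was close to the -30.3 points of CG losses in other protein-coding genes. The region with the largest area statistic, the authors' score summed over cytosines, lay 151 kb from the start (115890041 to 115890191, 12 cytosines) and went from 74.4% in control to 32.9% in cKO. The largest difference (115624827 to 115624900) was 59.2% against 14.7%, over 4 cytosines. The lowest control level was in the region from 115616086 to 115616221 (14 cytosines), at 29.5%, with 9.33% in cKO. In each of these regions some methylation was still read in cKO.

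In the CHH context, control levels in Sox6 ranged from 4.06% to 15.0% (median 6.48%) and cKO levels from 0.50% to 6.20% (median 1.46%). The cKO level was a median of 23.1% of the control level, against 19.3% for CHH losses in other protein-coding genes. In 7 of the 61 regions (11.5%) the control level was at least 10%, which held for 4.54% of CHH losses in other protein-coding genes, 0 of 16 in Sox5 and 0 of 6 in Sox13. Besides the region downstream of the start at 116031047, the largest area statistic was that of a region at 347 kb (115693589 to 115694180, 178 cytosines), at 6.06% in control and 0.716% in cKO. The 2 highest control levels were 15.0%, with 3.92% in cKO, at 418 kb from the start (115622883 to 115623125), and 14.8%, with 6.20% in cKO, at 11.1 kb (116029614 to 116029835). The latter opens a stretch of 1.35 kb with 2 CHH and 2 CG regions that ends just downstream of the start at 116031047. Another stretch of 2.19 kb (115563657 to 115565849) held 4 CHH regions, with control levels of 5.18% to 12.6% and cKO levels of 0.656% to 3.62%. In the first 2 of the 10 parts the median was 8.0% in control and 2.41% in cKO, and in the other 8 6.32% and 1.27%. The highest control level lay in the latter set, so these medians describe no steady trend along the gene.

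CHG losses, rare in the table, were present in Sox6 as well. In these 3 regions levels were 10.1% in control and 2.20% in cKO (115748795 to 115748893), 9.23% and 1.23% (115904079 to 115904189), and 12.1% and 2.26% (115952967 to 115953030). Of protein-coding genes, 0.789% had a CHG loss and 0.509% a CHG gain. As many as 3 CHG losses were found in 7 genes, Sox6 included, and none had more. The control levels of the 3 regions lay above the median of 5.32% for CHG losses in other protein-coding genes.

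Mitochondrial DNA, which is largely free of methylation in textbook accounts, gives a reference for levels outside CG. Its 4 CHH regions, all lower in cKO, had 5.43% to 19.9% in control and 0.379% to 0.519% in cKO, with a median absolute difference of 5.87 points. Of the CHH losses, 14 of 61 in Sox6, 2 of 6 in Sox13 and 0 of 16 in Sox5 differed by more than that median. The share of all CHH losses that did so is not given here, so these counts have no background. In other protein-coding genes the median difference of CHH losses was -4.49 points. In cKO, the mitochondrial levels were a median of 7.87% of control, up to 9.19%. The lowest values among the CHH losses were 6.07% in Sox5, 8.01% in Sox13 and 10.5% in Sox6. Of the CHH losses of the 3 genes, 0 had a control level above the highest mitochondrial CHH control level, 19.9%. In other protein-coding genes the median control level of CHH losses was 5.63% and the highest 20.9%. Of those losses 4.54% had at least 10%, so the count of 0 says little about the 3 genes. Mitochondrial DNA also held 3 CHG regions lower in cKO, at 5.08% to 17.9% in control and 0.075% to 0.435% in cKO. The control levels of the 3 Sox6 CHG losses lay within that range. Whether the mitochondrial and the nuclear differences share a source was not tested.

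**Figure D2:**
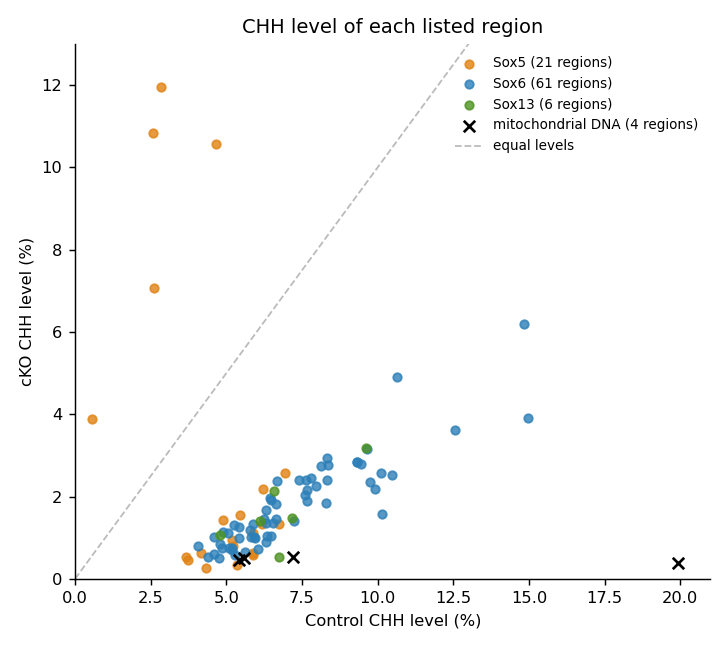
CHH level in cKO against control, in percent, for each listed CHH region of the 3 genes (points) and of mitochondrial DNA (crosses), with the dashed line at equal levels. The 5 Sox5 gains lie above the line, the other 83 SoxD regions below it, and the 4 mitochondrial regions have cKO levels of at most 0.519%.

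Sox5 (gene ID 20678, chromosome 6, 143828425 to 144782287, 954 kb) carried regions of both directions. It held 37 CG losses, 4 CG gains, 16 CHH losses, 5 CHH gains and 0 CHG regions. Of the 242 other protein-coding genes of 0.5 to 2 times its length, 69.4% had regions of both directions, so this mixture is common among genes of such size. In that set 72.7% had a CG loss and 31% a CG gain, 62% a CHH loss and 78.9% a CHH gain, while 8.68% had a CHG loss and 3.72% a CHG gain. Losses with no gain were found in 14.5%. CG losses were many, as 11 of the 242 had as many as Sox5 and the median of the set was 3. CG gains were also many for this set, as 15 of the 242 had at least the 4 of Sox5 and the median was 0. CHH gains were not, since 84 of the 242 had as many. By share, 90.2% of the CG regions of Sox5 were lower (95% exact binomial interval over regions 76.9% to 97.3%), against 87.2% in other protein-coding genes. For CHH the share was 76.2% (52.8% to 91.8%), against 63.8%. This majority was not kept among larger CHH differences. At 5 points or more there were 3 losses and 3 gains, and above the mitochondrial median difference 0 losses and 3 gains. These intervals cover the counting of regions only, as neighbouring regions share cells and reads.

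The gains of Sox5 lay in the later part of the gene, among losses. All 9 gains lay between 552 and 950 kb from the start, in the last 5 of 10 equal parts of the body, where 9 losses also lay. The first 5 parts held 43 losses and 0 gains. Beyond the gain nearest to the start there were 5 losses, all CG, and before it 32 CG and 16 CHH losses. The 5 CHH gains and 16 CHH losses thus did not interleave. The Sox5 start in the RefSeq windows, at 835 kb, lies in the part with gains. Median positions along the gene were 29.2% of its length for losses and 79.0% for gains, 49.9 points apart. Among the 76 other genes with at least 5 losses and 5 gains in CG and CHH, gains lay later than losses in 48 (63.2%), and 16 had a separation at least as large in that direction. This order is thus common among genes with both directions.

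**Figure D3:**
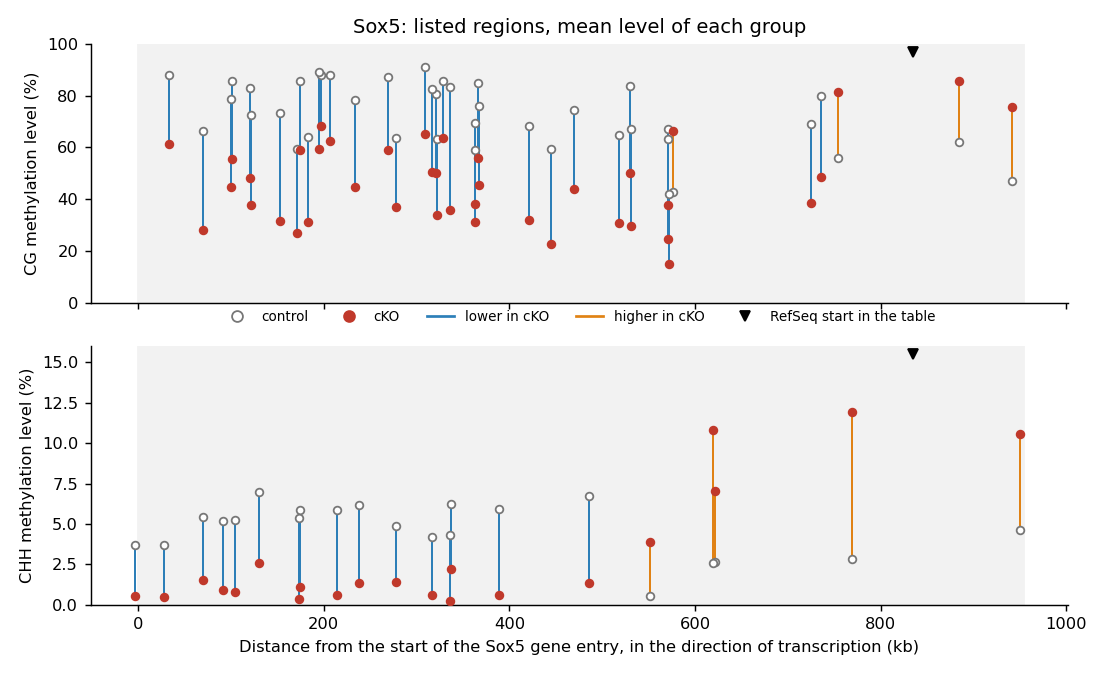
Mean CG level (upper panel) and CHH level (lower panel), in percent, of each listed region of Sox5, plotted by distance from the start of the gene entry in kb. Open points are control, filled points cKO, blue lines regions lower and orange lines regions higher in cKO, and the triangle a RefSeq start. The 9 gains begin at 552 kb, and 48 of the 53 losses lie before them.

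The CG gains of Sox5 started from intermediate levels. The 2 with the largest area statistic were 47.1% in control and 75.5% in cKO (143841091 to 143841244, 15 cytosines), and 62.1% and 85.7% (143898244 to 143898328), the latter inside the non-coding gene Gm52484. Another was 55.9% in control and 81.4% in cKO (144028317 to 144028383). In the remaining gain, from 144205671 to 144205731, the level was 42.7% in control and 66.5% in cKO. A CG region only 4.64 kb farther on (144210369 to 144210469) went the opposite way from nearly the same control level, 42.1%, to 15.0%. It opens a stretch of 0.877 kb with 3 CG losses, 1 of which (144211157 to 144211245) overlaps the non-coding gene Gm38531. In this 1 pair, picked with its values in view, neighbouring regions with like control levels thus differed in direction. At the other switch of direction between 2 CG regions, the control level was 55.9% in the gain and 79.9% in the loss.

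In 4 of the 5 CHH gains of Sox5, the cKO level was above the highest control level among its CHH losses, 6.95%. The strongest (144012986 to 144013183, 66 cytosines) went from 2.83% in control to 11.9% in cKO. A pair lay close together at 620 and 621 kb, with 2.57% and 10.8% (144162374 to 144162513) and 2.62% and 7.06% (144161230 to 144161325). The other 2 were 4.65% and 10.6% near the end of the gene (143832143 to 143832225), and 0.565% and 3.90% at 552 kb (144230435 to 144230530). Their median difference was 5.93 points, against 5.14 points for CHH gains in other protein-coding genes.

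The losses of Sox5 had median differences close to those in other protein-coding genes. Over its CG losses the medians were 75.9% in control and 44.1% in cKO. Their median difference was -30.6 points, against -30.3 points in other protein-coding genes. The longest, 1000 bp with 44 cytosines at 70.4 kb from the start (144711340 to 144712339), went from 66.6% to 27.9%. Another of 936 bp (144251127 to 144252062, 40 cytosines) went from 67.2% to 29.5%, and the largest difference, at 336 kb, was 83.5% in control and 35.8% in cKO (144446127 to 144446379). CHH losses ranged from 3.67% to 6.95% in control and from 0.263% to 2.57% in cKO. Their median difference was -4.31 points, against -4.49 points in other protein-coding genes. The Sox5 CHH losses were shorter, with a median of 88.5 bp and 32.5 cytosines, against 129 bp and 47 cytosines. The 2 with the largest area statistic lay next to each other at 174 kb, at 5.89% and 1.1% (144607760 to 144607944), and 5.34% and 0.345% (144608270 to 144608425) in control and cKO. The largest CHH difference, in 20 cytosines (144296930 to 144297001), was 6.75% against 1.33%. Of the 16 CHH losses 6 lay within 1 kb of a CG loss (37.5%), against 23% in other protein-coding genes, and 2 overlapped one (12.5%, against 6.08%). The antisense gene Sox5os3, inside Sox5, overlapped 2 CG and 2 CHH losses.

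Sox13 (gene ID 20668, chromosome 1, 133382300 to 133424459, 42.2 kb) carried 5 CG and 6 CHH regions, all lower in cKO. Of the 6746 other protein-coding genes of 0.5 to 2 times its length, 30.6% had a CG loss and 24.2% a CHH loss, and 214 and 158 had as many as Sox13. A CG gain was carried by 9.87%, a CHH gain by 22.2%, a CHG loss by 0.637% and a CHG gain by 0.519%. Regions of both directions were present in 9.37% and losses with no gain in 29.7%. Of the 214 genes with as many CG losses as Sox13, 183 had no gain, and of the 158 with as many CHH losses, 141. Per 100 kb of the widened body, Sox13 held 9.59 CG and 11.5 CHH losses, Sox6 4.48 and 10.5, and Sox5 3.84 and 1.66. In CHH losses Sox13 thus stood next to Sox6, and Sox5 lower.

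**Figure D4:**
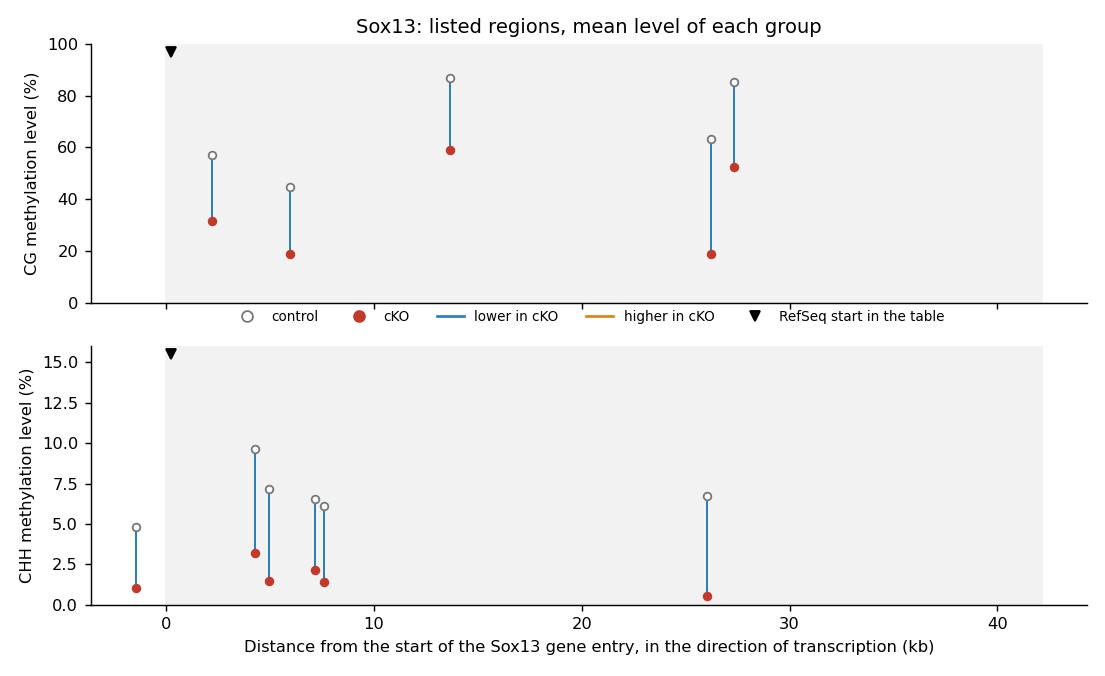
Mean CG level (upper panel) and CHH level (lower panel), in percent, of each listed region of Sox13, plotted by distance from the start of the gene entry in kb, with control as open and cKO as filled points and the RefSeq start as a triangle. All 11 regions were lower in cKO, and 3 of them lie 26.0 to 27.3 kb from the start.

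The strongest Sox13 region, at 26.2 kb from the start (133397861 to 133398578, 718 bp, 26 cytosines), had a CG level of 63.3% in control and 18.6% in cKO. A CHH region within it (133398283 to 133398571, 105 cytosines) went from 6.73% to 0.539%, 8.01% of the control level. Together with a further CG region, from 85.4% to 52.4% (133396996 to 133397260), they formed a stretch of 1.58 kb. Toward the start, 4 CHH regions lay between 4.26 and 7.58 kb. The largest of them (133420032 to 133420369, 116 cytosines) had 9.61% in control and 3.19% in cKO. A CG region at 5.94 kb had 44.6% in control and 19.0% in cKO (133418455 to 133418578). Nearer the start, at 2.22 kb, another had 57.0% and 31.7% (133422192 to 133422288). Between these regions and the stretch of 1.58 kb, a CG region at 13.7 kb (133410662 to 133410907, 18 cytosines) had 86.9% in control and 59.0% in cKO. Of 10 equal parts of the gene body, parts 3, 5 and 6 and the last 3 held no region.

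The 3 genes differed in number and direction of regions, and also in length. Regions enter the table by their difference, so likeness in the size of single losses was in part fixed in advance. Size and number were therefore not weighed against each other. Median differences of CG losses were -30.6 points in Sox5, -30.5 in Sox6 and -27.9 in Sox13, and of CHH losses -4.31, -5.19 and -5.21 points. CHH losses were longer in Sox6 and Sox13, with a median of 177 and 217 bp and 56 and 82 cytosines, than in Sox5, with 88.5 bp and 32.5 cytosines. In other protein-coding genes these medians were 129 bp and 47 cytosines. The differences were not tested, since regions of a gene are not replicates of a condition. Genes most like each member were taken by the distance between their 4 densities of CG and CHH losses and gains per 100 kb. Nearest to Sox6 were Alk, a receptor kinase with 29 CG and 72 CHH losses and 0 gains, Tshz2 with 26 and 47 losses and 3 CG gains, and Zfp521, a zinc finger factor with 18 and 30 losses and 0 gains. Nearest to Sox5 were Cdh13, the gene of T-cadherin, with 48 CG and 25 CHH losses, 1 CG gain and 4 CHH gains, Lpp with 25 and 8 losses, 0 CG gains and 2 CHH gains, and Pde1c with 25 and 10 losses and 0 gains. Nearest to Sox13 were Slc16a9 with 5 CG and 6 CHH losses, Grhl3 with 4 and 5, and Clic4 with 7 and 8.

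**Figure D5:**
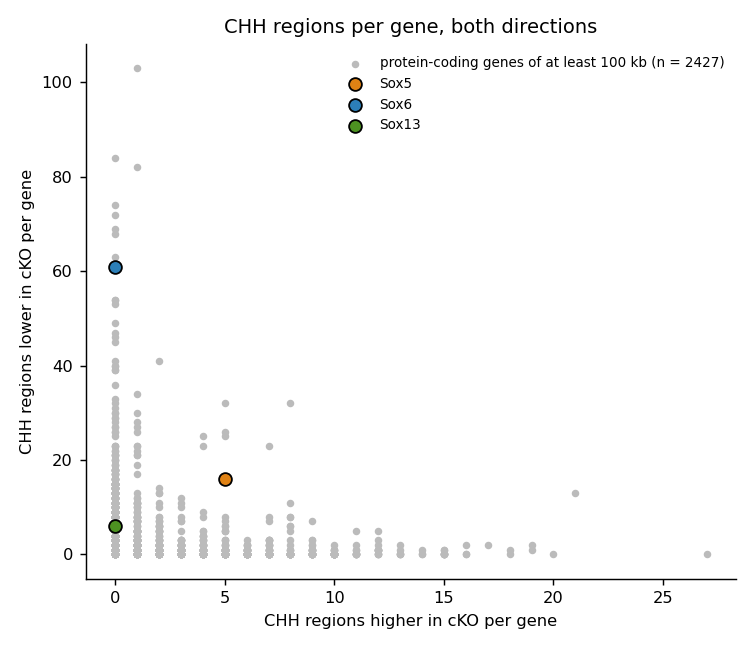
Number of CHH regions lower in cKO against number higher in cKO for each protein-coding gene of at least 100 kb (grey, n = 2427) and for Sox5, Sox6 and Sox13, the last of which is shorter than that. Sox6 stands at 61 lower and 0 higher, Sox5 at 16 and 5, and Sox13 at 6 and 0.

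Other genes of the Sox family and of SoxD networks were counted by the same window. Of the 16 Sox genes outside SoxD, 11 had a region lower in cKO in some context, where 35.3% of all protein-coding genes did, and 2 had a region higher, where 20.9% did. Their median length was 4.61 kb, and the counts were not matched on length. Sox8 held 5 CG losses and 1 CHH loss, its strongest CG region at 58.6% in control and 27.3% in cKO, and Sox7 held 4 CG and 4 CHH losses. Of 5 deep layer partners of Sox5 (median length 93.7 kb), 4 had a loss and 1 a gain. Long genes carry more regions, and these counts were not matched on length either. Foxp2 (541 kb) and Zfpm2 (450 kb) lie in the length range of the genes set beside Sox6, of which 70.4% had a CG loss. Bcl11b, a factor of subcortical projection neurons, held 3 CG and 11 CHH losses and 0 gains. Of 13 interneuron partners of Sox6 (median length 5.87 kb), 8 had a loss and 1 a gain. The neuropeptide gene Sst held 6 CHH losses and 0 CG regions, and Satb1, which acts downstream in these interneurons, held 5 CG and 2 CHH gains and 0 losses.

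The other lists hold partners known outside neurons, to be read against the 35.3% of all protein-coding genes with a loss and the 20.9% with a gain. Of 7 oligodendrocyte genes (median length 18.9 kb), 5 had a loss and 1 a gain, and Pdgfra, the receptor that marks precursors, held 6 CG and 3 CHH losses with its strongest CG region at 74.8% in control and 36.0% in cKO. Of 6 cartilage targets of the Sox5, Sox6 and Sox9 trio (median length 28.4 kb), 5 had a loss and 0 a gain. Matn1, a cartilage matrix protein, held 2 CG and 9 CHH losses. Of 6 T cell and Wnt partners of Sox13 (median length 40.6 kb), 6 had a loss and 0 a gain, led by Lef1, a Wnt effector, with 11 CG and 18 CHH losses, and Ctbp2, a corepressor, with 16 CG losses and 1 CHH loss. The lists are small and were not tested.

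The widened window decided little. Of the 163 regions, 3 lay in the added 5 kb, all CHH losses. They were 2.96 kb upstream of Sox5 (3.67% in control, 0.540% in cKO), 1.43 kb upstream of Sox13 (4.80%, 1.07%) and 1.21 kb downstream of Sox6 (5.26%, 1.31%). The nearest regions outside were all lower in cKO too. They lay 10.8 and 12.9 kb from Sox5, 18 and 80.4 kb from Sox6, and 8.19 and 16.6 kb from Sox13.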

How the data were processed

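Whole-genome bisulfite sequencing compared 2 cKO and 2 control libraries. CASAVA, Bowtie2 and mm10 are named in the submitters' processing notes; the region caller, its thresholds and any pooling of replicates: not given in the sources used here. The authors deposited a mean level per group as a fraction (printed as a percent), the difference, an area statistic (a score with no fixed range, used for ranking) and the number of cytosines. The difference equalled cKO minus control in all 101350 regions. In 214 of 224 CG regions inside RefSeq start windows, the deposited number equalled the cytosines of CpG sites on both strands in GRCm38.p6, with 1-based positions. Genes were placed by RefSeq (assembly GRCm38.p6), leaving out entries in the first 3 Mb of chromosomes other than Y and mitochondrial DNA (21792 protein-coding genes). Exons and transcripts were not analysed here. Counting per gene (Python 3.11.15, pandas 2.3.3) was tested on simulated data and gave equal counts in 636 of 636 genes. Intervals are 95% Clopper-Pearson. With group means alone no test between samples was made. The members, lists and rules were chosen with earlier results of these data known. Named regions were, per gene, context and direction, the 2 with the largest area statistic, that with the largest difference and those at starts. Other regions named, such as those with the highest control level or beside these, were picked with their values in view. Alternatives changed the window, overlap, thresholds and joining of neighbours. For 1 of the gene lists, 1 gene is not reported here and was left out of the counts.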

Additional observations from a re-analysis of the deposited data

How the results depend on the processing

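Each of 28 values (numbers of regions, shares lower and median differences per gene) was recomputed under 8 settings, giving 221 values. Of these, 187 stayed within 1.5 times the count or the interval of the share or median. Medians were taken within 1 direction, so their sign could not change. Settings that only drop regions could not move a share of 100% or a count of 0. Part of the 187 was therefore fixed in advance. The majority of losses among the CHH regions of Sox5 was not kept under 2 settings. All values stayed within these bounds with the gene body alone, with 20 kb added, with whole regions only and with regions joined over 500 bp. With an absolute difference of at least 30 points in CG and 5 points in CHG and CHH, Sox5 had 22 CG losses and 0 CG gains (100% lower, median loss -33.8 points) and 3 CHH losses and 3 CHH gains (50% lower, median loss -5.29 points). Sox6 then had 14 CG losses (median -36.9 points) and 32 CHH losses (median -5.76 points), and Sox13 had 2 CG and 3 CHH losses. With area statistics at or above the median of the context, Sox5 had 19 CG losses, 2 CG gains, 6 CHH losses and 1 CHH gain, Sox6 10 CG losses and Sox13 3 CG losses. With at least 10 cytosines in CG and 50 in CHG and CHH, Sox5 had 20 CG losses, 2 CG gains, 4 CHH losses and 1 CHH gain, Sox6 10 CG, 0 CHG and 36 CHH losses, and Sox13 3 CG losses. With CHH differences above the mitochondrial median, a filter chosen after seeing the data, Sox5 had 0 CHH losses (0% lower) and 3 CHH gains, Sox6 14 CHH losses (median -7.47 points) and Sox13 2 CHH losses. These settings keep fewer regions by construction. The longest curated transcript as gene model was not run, since transcript positions were not used here. No paired analysis was possible because the table holds group means and no values per library, and for the same reason no replicate could be left out. Depth, and so the precision of each mean, is unknown.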
